A study of Mus musculus with 4 samples.

Results

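The genes described here are 8 members of the Sox family of transcription factors: the SoxB1 genes *Sox1*, *Sox2* and *Sox3*, the SoxB2 gene *Sox21*, the SoxC genes *Sox4*, *Sox11* and *Sox12*, and the SoxE gene *Sox9*. They were chosen by symbol from the 32285 genes counted in each library, and all 8 were found. Their levels were measured in single cells that carried tdTomato and had been sorted from mouse telencephalon at postnatal day 5, in 2 control libraries (NestinCreERT2/tdTomato/Chd8+/+) and 2 mutant libraries (NestinCreERT2/tdTomato/Chd8+/F) of strain C57BL/6. All mice carried the tamoxifen-dependent Cre, driven by Nestin in neural progenitor cells, and the tdTomato reporter, and all had received tamoxifen at embryonic day 14.5, so that the groups differ in the loxP-flanked allele of *Chd8*, a chromatin remodeler. Each library pooled cells of 3 mice, so the spread between mice was not measured, and p-values below measure the spread between pooled libraries. The comparison of genotypes addresses whether loss of 1 *Chd8* allele in midfetal progenitor cells alters gene expression in their progeny.

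Sox proteins bind DNA through a shared domain, the high mobility group (HMG) box, and are grouped by its sequence. SoxB1 factors maintain neural progenitor cells and SOX21 opposes them, whereas SoxC factors act as cells leave the progenitor state and become neurons. SOX9 is required for neural stem cells and for the onset of gliogenesis, and is later retained in astrocytes and ependymal cells. Because a family of this kind is deployed in turn along each lineage, the members were described across progenitors, young neurons and glia.

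To show how closely the members are related, the first 60 bases of the HMG-box coding sequence are given, read 5′ to 3′ from the GENCODE vM21 transcripts, with capitals at each base that differs from *Sox2*.
Sox2: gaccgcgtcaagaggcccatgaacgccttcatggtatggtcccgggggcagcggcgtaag
Sox1: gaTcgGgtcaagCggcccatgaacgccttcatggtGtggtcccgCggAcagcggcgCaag
Sox3: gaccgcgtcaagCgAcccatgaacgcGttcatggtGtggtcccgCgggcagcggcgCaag
Sox21: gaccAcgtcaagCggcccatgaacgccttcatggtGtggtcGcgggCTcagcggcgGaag
Sox4: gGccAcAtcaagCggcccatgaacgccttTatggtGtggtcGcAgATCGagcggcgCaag
Sox11: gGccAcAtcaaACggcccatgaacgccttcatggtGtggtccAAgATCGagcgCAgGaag
Sox12: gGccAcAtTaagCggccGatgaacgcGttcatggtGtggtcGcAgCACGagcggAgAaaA
Sox9: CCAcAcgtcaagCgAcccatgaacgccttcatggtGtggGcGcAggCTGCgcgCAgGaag
*Sox1* and *Sox3* differed from *Sox2* at 7 and 6 of these bases without changing any of the 20 encoded residues, and *Sox21* differed at 7 bases and 2 residues. The SoxC genes differed at 13 to 17 bases and *Sox9* at 17, with 6 residues changed in each. Over the 79 residues of the box, the 6 pairs of SoxB genes shared 88.6% to 96.2% and the 3 pairs of SoxC genes 87.3% to 93.7%, whereas SoxB and SoxC genes shared 59.5% to 67.1% with each other and *Sox9* shared 58.2% to 64.6% with the other members.

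In mm10, *Sox1* lies at chr8:12395295-12400126, *Sox2* at chr3:34650405-34652461, *Sox3* at chrX:60891366-60893430, *Sox21* at chr14:118233232-118237030, *Sox4* at chr13:28948919-28953713, *Sox11* at chr12:27334264-27342574, *Sox12* at chr2:152393611-152398063 and *Sox9* at chr11:112782224-112787760. Each has a single exon except *Sox9*, which has 3. *Sox1* and *Sox2* lie within the long noncoding RNA genes *Sox1ot* and *Sox2ot* on the same strand, and *Sox21* overlaps *Gm4675* on the opposite strand. Counts of *Sox1* and *Sox2* are uncertain where reads could be assigned to either same-strand partner.

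The libraries held 6107 to 7279 barcodes and 46274374 to 79328841 counts of unique molecular identifiers (UMIs, which mark captured transcript molecules), and 2973 to 5710 cells per library passed the filters. Between any pair of libraries, 8 to 21 barcodes were shared. The matrix headers named Cell Ranger 7.0.0 for both libraries of replicate 1 and 5.0.1 for both libraries of replicate 2, and *Xist* was at 0.149 and 0.153 CPM (UMIs of a gene scaled to a common library total) in the former but at 1633 and 1749 CPM in the latter, which goes against the male sex that the study states for its single-cell samples. Replicate number, software version and the difference in *Xist* cannot be told apart. *Chd8* itself was at 61.7 and 89.8 CPM in the control libraries and at 68.7 and 94.9 CPM in the libraries labelled mutant, which does not mark the mutant libraries by a lower level. Read positions were not examined, and 3′ reads outside the deleted part would not show the deletion. By immunoblot, the study found less CHD8 protein in sorted tdTomato-positive cells of mutant embryos. Because the libraries differ in these ways, values of the single libraries are shown.

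Cells were clustered without the 8 genes, and clusters were named from marker lists that hold none of them. There were 14 neural classes: subventricular stem cell-like cells (815 cells; *Veph1*, *Sfrp1*), intermediate progenitor-like cells (1030; *Egfr*, *Dll1*), dividing inhibitory progenitor-like cells (686) and inhibitory neuron-like cells (2833; *Dlx* genes, *Gad1*), excitatory precursor-like cells (418; *Eomes*) and excitatory neuron-like cells (1085; *Neurod2*), dividing astrocyte progenitor-like (531) and astrocyte-like cells (4085; *Aqp4*), dividing (623) and resting (2377) oligodendrocyte precursor cell (OPC)-like cells (*Pdgfra*), committed oligodendrocyte precursor-like cells (436; *Gpr17*), oligodendrocyte-like cells (166; *Mbp*), ependymal-like cells (787; *Foxj1*) and ependymal-like cells with division genes (159), which were led by *Cdc20b*, *Deup1* and *Ccno*. The names are used below without the suffix. The lists also found microglia, whose shares are used as a background for free RNA, and vascular cells and fibroblasts. Replicates were unevenly spread over some clusters: one astrocyte cluster held 889 and 874 cells of control and mutant replicate 1 but 6 and 3 of replicate 2, another held 42 and 61 against 652 and 703, and one OPC cluster held 217 and 377 against 12 and 14. Levels and their differences between classes are descriptions without a test.

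*Sox2*, which maintains neural stem cells, was highest in stem cells, at 656 and 652 CPM in control replicates 1 and 2 and at 609 and 823 CPM in mutant replicates 1 and 2 (mean 685.1 ± 94.4, SD, n = 4). It was retained in most neural classes, with means from 239 CPM in OPCs to 594 CPM in oligodendrocytes. Excitatory neurons stood below all of these, at 53.7 and 69.8 CPM in the control libraries and 51.6 and 79.02 CPM in the mutant libraries, and did not overlap with any other neural class. Inhibitory neurons lay above them, at 207 and 288 CPM in the control libraries and 215 and 393 CPM in the mutant libraries. Between *Sox2* in the highest class and in the next one, oligodendrocytes (594.3 ± 176), the libraries overlapped.

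*Sox1*, a marker of neuroepithelial cells, was highest in dividing inhibitory progenitors (157 and 170 CPM in the control libraries, 162 and 192 CPM in the mutant libraries). Stem cells (143.5 ± 16.7 CPM), intermediate progenitors (133 ± 8.79), inhibitory neurons (105 ± 5.9) and ependymal cells (102.4 ± 7.58) followed. In excitatory neurons it was at 11.9 and 4.61 CPM in the control libraries and 13.05 and 7.85 CPM in the mutant libraries, so every library of inhibitory neurons lay above every library of excitatory neurons. The OPC classes held 10.3 and 10.6 CPM on average, and oligodendrocytes 1.18 CPM. Every library of the OPC classes, committed precursors and oligodendrocytes lay below every library of astrocytes and ependymal cells.

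*Sox3*, the X-linked SoxB1 gene, had its highest levels where *Sox1* was low. Dividing OPCs held 75.8 and 69.3 CPM in the control libraries and 76.0 and 70.3 CPM in the mutant libraries, and OPCs held 66.7 and 70.3 CPM in the control libraries and 62.5 and 84.4 CPM in the mutant libraries. The ependymal cells with division genes came next (57.4 ± 13.6 CPM, overlapping with OPCs), above the other ependymal cells (17.4 ± 4.36), from which they did not overlap. *Sox3* was at 2.94 ± 2.15 CPM in inhibitory neurons and 3 ± 1.63 CPM in excitatory neurons, near the 2.63 CPM of microglia. The difference in *Xist* between replicates was not accompanied by a shift of *Sox3* in 1 direction: replicate 2 exceeded replicate 1 in 6 of 13 classes for the controls and 8 of 13 for the mutants.

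*Sox21*, the SoxB2 gene, had, like *Sox2*, its highest level in stem cells and its lowest in excitatory neurons, but parted from it in inhibitory neurons (7.40% of the highest class, against 40.2% for *Sox2*) and excitatory precursors (17.8% against 46.2%). In excitatory precursors *Sox21* varied between replicates (31.4 ± 22.5 CPM), with log2 of replicate 2 over replicate 1 at -1.35 in the controls and -2.57 in the mutants. In stem cells it was at 180 and 133 CPM in the control libraries and 186 and 208 CPM in the mutant libraries, and intermediate progenitors came next (136.7 ± 34 CPM), with overlapping libraries. Astrocytes held 113.9 ± 16 CPM and OPCs 78.96 ± 10.9 CPM. Inhibitory neurons held 15.8 and 9.85 CPM in the control libraries and 14.9 and 11.8 CPM in the mutant libraries, and excitatory neurons 6.82 ± 2.77 CPM, against 8.28 CPM in microglia.

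*Sox4* and *Sox11*, the SoxC genes that act in newborn neurons, were highest in neurons and their dividing precursors. *Sox11* was at 2447 and 3984 CPM in excitatory neurons of the control libraries and at 2906 and 5347 CPM in those of the mutant libraries. Dividing inhibitory progenitors (3126 ± 650.0 CPM), inhibitory neurons (2833 ± 669) and excitatory precursors (2379.5 ± 698) overlapped with one another and lay above intermediate progenitors (826.7 ± 157), with no overlap at that step. In stem cells *Sox11* was at 165.7 ± 25.5 CPM, and in oligodendrocytes at 66.7 ± 10.2 CPM, below the 83.8 CPM of microglia.

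*Sox4* was at 1804 and 2770 CPM in inhibitory neurons of the control libraries and at 1888 and 4095 CPM in those of the mutant libraries. Its order among the neuronal classes differed from that of *Sox11*, but neighbours in both orders overlapped. In the oligodendrocyte lineage the genes parted. *Sox4* was at 588 and 909 CPM in oligodendrocytes of the control libraries and at 521 and 1282 CPM in those of the mutant libraries, above committed precursors of the same library in all 4, whereas *Sox11* was lower in oligodendrocytes than in committed precursors in all 4. The *Sox11* means were 91.4 CPM in committed precursors and 66.7 CPM in oligodendrocytes. They lie just above and below its level in microglia, so this difference is not distinguished from background. *Sox12*, the remaining SoxC gene, varied less between classes, from 9.74 CPM in ependymal cells with division genes to 71.3 ± 10.8 CPM in committed precursors, and 12 of 13 neighbours in its order overlapped.

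*Sox9* was highest in ependymal cells, at 665 and 733 CPM in the control libraries and 784 and 931 CPM in the mutant libraries, and in stem cells (769.4 ± 104), which overlapped with them. Astrocytes followed at 441 and 410 CPM in the control libraries and 486 and 497 CPM in the mutant libraries, separate from both neighbours. In the oligodendrocyte lineage it was at 152 and 175 CPM in OPCs of the control libraries and 197 and 256 CPM in those of the mutant libraries, at 23.35 and 29.5 CPM and 13.4 and 20.65 CPM in committed precursors, and at 2.15 and 5.3 CPM and 2 and 4.22 CPM in oligodendrocytes. The 3 classes did not overlap, so *Sox9* was lower at each stage.

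**Figure D1:**
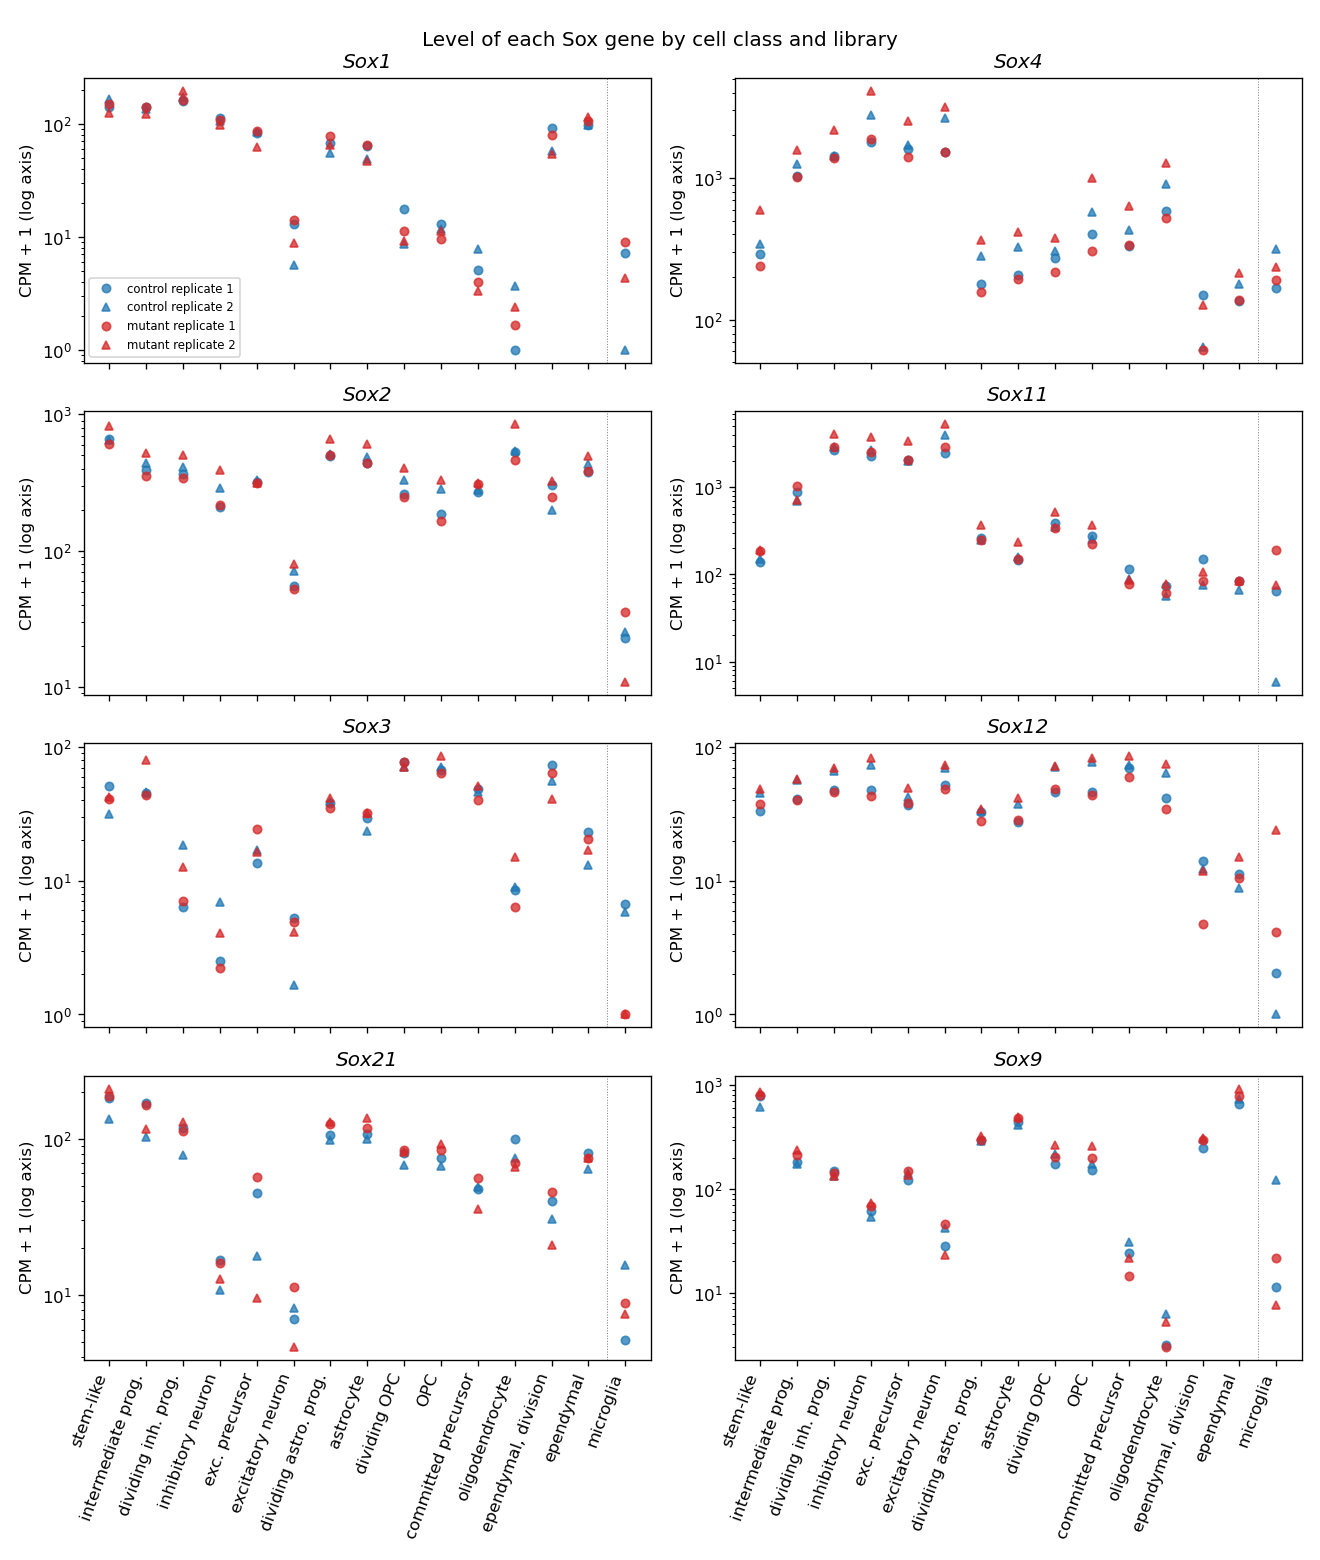
Level of each Sox gene (CPM + 1, log axis) in 14 neural classes and in microglia, with 1 point per library, blue for control and red for mutant, circles for replicate 1 and triangles for replicate 2. *Sox4* and *Sox11* are highest in neurons and their precursors, *Sox9* is at 2 to 5.3 CPM in oligodendrocytes, and *Sox3* is highest in the OPC classes.

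Shares of cells with a UMI were compared after each cell was thinned to 2000 UMIs, because the median depth ranged from 6295 UMIs in inhibitory neurons to 22986.5 in oligodendrocytes. *Sox9* was found in 78.0% ± 5.12 of stem cells (SD, n = 4 libraries; 98.5% without thinning), in 26.1% ± 5.87 of OPCs, 5.06% ± 3.51 of committed precursors and 0.33% ± 0.667 of oligodendrocytes, against 1.67% of microglia (median depth 10652 UMIs). *Sox2* was found in 70.1% ± 3.71 of stem cells, 62.7% ± 8.99 of oligodendrocytes and 10.6% ± 4.78 of excitatory neurons, against 3.16% of microglia. *Sox11* was found in 98.7% ± 0.931 of dividing inhibitory progenitors and 96.3% ± 4 of excitatory neurons, against 4.56% of microglia. *Sox4* was found in 92.8% ± 5.79 of inhibitory neurons, but also in 25.4% of microglia and 33.6% of fibroblasts, so that its 26.0% in ependymal cells is not distinguished from background. *Sox3* in inhibitory neurons (0.824%) and *Sox1* in committed precursors (0.326%) were likewise at or below the microglial shares of 1.31% and 0.35%.

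Next, consecutive classes were compared within each library, as log2 of the ratio of CPM + 1, for genes of at least 10 CPM in either class. A gene was counted as different where its mean difference was at least 2-fold and had 1 direction in all 4 libraries. From stem cells to intermediate progenitors, *Sox4* was higher by 1.80 ± 0.287 (SD, n = 4, log2) and *Sox11* by 2.31 ± 0.338, whereas *Sox9* was lower (-1.94 ± 0.128). These were 2 of 8 members higher and 1 lower, against 10.8% of all genes higher and 15.9% lower. From intermediate to dividing inhibitory progenitors, *Sox11* was again higher (1.92 ± 0.472) and *Sox3* was lower (-2.36 ± 0.698), or 1 member each way, against 6.18% and 11% of all genes. *Sox4* differed by less than 2-fold at that step (0.40 ± 0.13), so *Sox11* exceeded 2-fold at both steps and *Sox4* at the first.

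From dividing inhibitory progenitors to inhibitory neurons, 3 of 8 members were lower: *Sox21* (-2.95 ± 0.26), *Sox3* (-1.51 ± 0.16) and *Sox9* (-1.12 ± 0.207), against 9.65% of all genes. *Sox1* (-0.69 ± 0.207) and *Sox2* (-0.58 ± 0.195) were lower in all 4 libraries by less than 2-fold. From excitatory precursors to excitatory neurons, 5 of 8 members were lower, against 10.8% of all genes: *Sox1* (-3.00 ± 0.604), *Sox2* (-2.32 ± 0.288), *Sox3* (-2.25 ± 0.825), *Sox9* (-2.04 ± 0.399) and *Sox21* (-1.79 ± 0.842). These are the SoxB genes and *Sox9*, while the SoxC genes differed by less than 2-fold (*Sox11* 0.60 ± 0.318). *Sox1* and *Sox2* thus had smaller differences along the inhibitory than along the excitatory steps, a contrast that was not tested. With the Sox genes added to the clustering genes, 3 members were counted at the excitatory step, with *Sox21* at -0.56, and with a mitochondrial limit of 5%, 3. Excitatory precursors included a cluster of 74 cells led by *Tesc* and *Thrsp*, with stem cells as its second-scoring class. Under both of these settings, a cluster led by *Tesc* and *Thrsp* was named as stem cells. The same naming occurred without the cells of highest doublet score, a setting in which the count did not move to 3. What the naming contributes to the counts was not tested.

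In the oligodendrocyte lineage, no member differed 2-fold between dividing and resting OPCs, where 6.45% of all genes did. *Sox4* was higher in resting OPCs in all 4 libraries (0.84 ± 0.415). From OPCs to committed precursors, 3 of 8 members were lower, against 14.2% of all genes: *Sox9* (-3.13 ± 0.637), *Sox11* (-1.60 ± 0.364) and *Sox1* (-1.24 ± 0.493, from 10.3 CPM). From committed precursors to oligodendrocytes, *Sox9* (-2.39 ± 0.39) and *Sox3* (-2.32 ± 0.385) were lower, 2 of the 7 members that reached 10 CPM, against 8.94% of all genes, while *Sox2* (0.98 ± 0.352) and *Sox4* (0.89 ± 0.206) were higher in all 4 libraries by just under 2-fold. Control replicate 2 held 18 oligodendrocytes and 26 committed precursors. The difference of *Sox9* between OPCs and committed precursors was larger in cells with at most 5% mitochondrial counts (-4.74) and without the cells of highest doublet score (-4.62).

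No member differed 2-fold between dividing astrocyte progenitors and astrocytes, where 8.45% of all genes did. *Sox9* was higher (0.60 ± 0.0831) and *Sox11* lower (-0.72 ± 0.0809) in astrocytes in all 4 libraries. From stem cells to ependymal cells, 5 of 8 members were lower, against 15.5% of all genes: *Sox12* (-1.87 ± 0.356), *Sox21* (-1.26 ± 0.183), *Sox3* (-1.18 ± 0.141), *Sox4* (-1.07 ± 0.287) and *Sox11* (-1.06 ± 0.232). *Sox9* was similar in both classes (0.02 ± 0.217, higher in 2 of 4 libraries). With TMM scaling across classes, which moved the median of all genes at this step from -0.14 to 0.00, 3 members were counted.

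**Figure D2:**
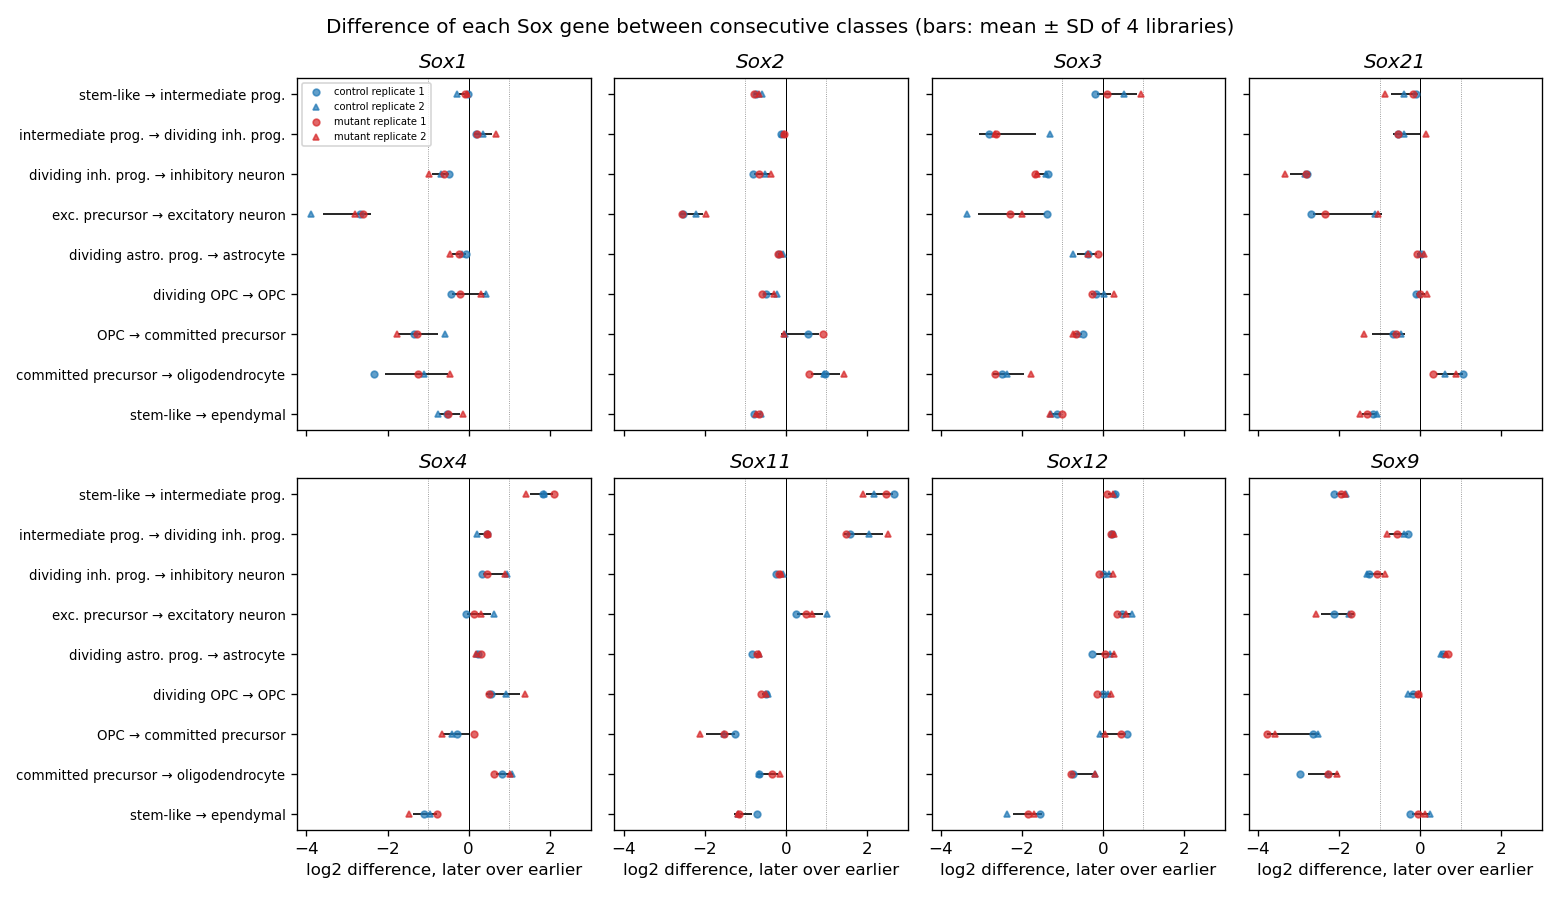
Difference in level of each Sox gene between consecutive classes (log2 of the ratio of CPM + 1, later over earlier class), with 1 point per library and bars for mean ± SD of 4 libraries; dotted lines mark 2-fold. *Sox9* is lower at both late oligodendrocyte steps, *Sox11* is higher at the first steps toward inhibitory neurons, and the SoxB genes are lower in excitatory neurons.

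The same steps were described for genes that the literature links to each group. Of all genes, 15.9%, 11%, 9.65% and 10.8% were 2-fold lower in intermediate progenitors, dividing inhibitory progenitors, inhibitory neurons and excitatory neurons. For committed precursors, oligodendrocytes and ependymal cells the shares were 14.2%, 8.94% and 15.5%. Those 2-fold higher were 10.8% and 6.18% in intermediate and dividing inhibitory progenitors. Shares higher are not given for the inhibitory neuron, excitatory neuron, oligodendrocyte and ependymal steps, so counts higher there have no base rate. In either direction, 8.45% and 6.45% differed at the astrocyte and OPC steps. Of 12 progenitor genes linked to SoxB1, those at 10 CPM that were 2-fold lower numbered 4 of 11 from stem cells to intermediate progenitors, 3 of 11 from these to dividing inhibitory progenitors, 5 of 10 from these to inhibitory neurons, 5 of 11 from excitatory precursors to excitatory neurons, 0 of 11 from dividing astrocyte progenitors to astrocytes, 3 of 11 between the OPC classes, 3 of 9 from committed precursors to oligodendrocytes and 7 of 11 from stem to ependymal cells, and none was 2-fold higher at any of the 9 steps. From OPCs to committed precursors, 9 of 9 were lower, among them *Nes*, which encodes the intermediate filament nestin, and the Notch effectors *Hes1* and *Hes5*. The median of the list at that step was -2.31 (log2), against -0.17 for all genes, although *Sox2* itself was not lower there (0.34 ± 0.47). Of 8 neuronal genes linked to SoxC, 5 of 8 were higher from stem cells to intermediate progenitors (median 1.11, all genes -0.03) and 5 of 7 from these to dividing inhibitory progenitors (median 1.68, all genes -0.10), steps at which *Sox11* was also called higher. They were also higher in 4 of 8 from excitatory precursors to excitatory neurons (median 1.12, all genes -0.02), where *Sox11* was not called, and in 2 of 7 from dividing inhibitory progenitors to inhibitory neurons. From OPCs to committed precursors 5 of 7 were lower, and 0 of 8, 0 of 7, 0 of 6 and 0 of 8 were higher at the astrocyte, OPC, oligodendrocyte and ependymal steps. At the same steps, in that order, 1 of 8, 1 of 7, 2 of 6 and 3 of 8 were lower. Also lower were 1 of 8, 0 of 7, 1 of 7 and 1 of 8 in intermediate progenitors, dividing inhibitory progenitors, inhibitory neurons and excitatory neurons. Of 9 glial genes linked to *Sox9*, 5 of 9 were lower from stem cells to intermediate progenitors, 2 of 6 from dividing inhibitory progenitors to inhibitory neurons, 3 of 9 from excitatory precursors to excitatory neurons, 5 of 7 from OPCs to committed precursors and 4 of 6 from these to oligodendrocytes, the steps at which *Sox9* was called lower. Where it was not, 6 of 9 were lower from intermediate to dividing inhibitory progenitors (median -1.93, all genes -0.10), 8 of 9 from stem to ependymal cells (median -2.23, all genes -0.14), and 0 of 9 and 0 of 7 at the astrocyte and OPC steps.

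Of 12 genes on a list of other Sox genes, which includes the noncoding *Sox2ot*, 1 of the 5 at 10 CPM was lower from OPCs to committed precursors (14.2% of all genes). From these to oligodendrocytes, 1 of 6 was lower (8.94% of all genes) and 1 higher, for which no share of all genes is given. *Sox10*, which drives oligodendrocyte differentiation, was at 270.5 ± 26.6 CPM in OPCs, 373.2 ± 59.3 in committed precursors and 463.7 ± 81.4 in oligodendrocytes, and at 4.1 ± 1.96 CPM in astrocytes. *Sox8*, a SoxE gene like *Sox9* and *Sox10*, was at 148.5 ± 17.3, 279.3 ± 52.1 and 141.8 ± 29.7 CPM in the same 3 classes. *Sox9* therefore had the opposite order to *Sox10* over these stages. *Sox2ot*, which overlaps *Sox2*, was at 2326 ± 2164 CPM in inhibitory neurons and 83.4 ± 81.2 CPM in excitatory neurons, an SD nearly as large as the mean. In OPCs, committed precursors and oligodendrocytes *Sox2ot* was at 1091 ± 1084, 248.6 ± 180 and 560 ± 290 CPM. From OPCs to committed precursors it had the largest fall of a mean on the list.

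Levels also varied within classes. Among the OPCs, the cluster led by *Dll3*, *C1ql1* and *Lhfpl3* (755 cells) held *Sox9* at 73.6 and 61.0 CPM in the control libraries and 70.4 and 174 CPM in the mutant libraries, whereas the cluster led by *Pdgfra* and *Rasl11a* (1002 cells) held 248 and 257 CPM and 304 and 343 CPM. *Sox4* had the reverse order, at 848.8 ± 425 CPM in the former and 382.9 ± 118.5 CPM in the latter, and was higher in the former in all 4 libraries. Within inhibitory neurons, the cluster led by *Dlx6os1*, *Gad2* and *Stmn2* (831 cells) held more *Sox9* (129.9 ± 58.7 CPM) than the cluster led by *Prokr2* and *Adarb2* (1527 cells; 41.0 ± 12.2), in all 4 libraries. The former held 36 and 28 cells in control and mutant replicate 2. *Sox11* was likewise higher there (3666 ± 1001 against 2722 ± 664.5 CPM). *Sox2* was at 280.7 ± 69 and 271.5 ± 96.7 CPM in these clusters, a difference within the spread of the libraries.

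In single cells thinned to the same depth, *Sox2* and *Sox11* were found together in 52.8% of dividing inhibitory progenitors, 35.8% of inhibitory neurons and 10.2% of excitatory neurons. Since *Sox11* was found in nearly all dividing inhibitory progenitors and excitatory neurons, the joint shares there largely follow the share of cells with *Sox2*. Excitatory precursors with a *Sox2* UMI held 4.15 ± 1.36 UMIs of *Sox11* per 2000, and those without held 5.69 ± 1.37, lower with *Sox2* in 4 of 4 libraries. In dividing inhibitory progenitors the order was reversed in 4 of 4 libraries but the values were close (6.65 ± 1.7 with and 6.34 ± 1.53 without). Excitatory precursors with a *Sox4* UMI held 5.61 ± 1.37 UMIs of *Sox11* and those without held 1.55 ± 0.769, higher with *Sox4* in 4 of 4 libraries. The excitatory precursor class mixed cell states: a cluster of 74 cells, led by *Tesc*, *Thrsp* and *Gdf10*, had stem cells as its second-scoring class. How far this mix accounts for these contrasts was not tested. In stem cells, *Sox9* was at 1.7 ± 0.279 UMIs with and 1.42 ± 0.128 without a *Sox2* UMI, higher with it in 4 of 4 libraries.

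Over the 16 classes with at least 20 cells in every library, the Pearson correlation of log2 levels was 0.908 for *Sox4* with *Sox11* and 0.889 for *Sox2* with *Sox21*. The classes share libraries and lineages, and these values describe the pattern only. Among SoxB pairs r ranged from 0.264 (*Sox1* with *Sox3*) to 0.889, among SoxC pairs from 0.593 to 0.908, and between SoxB and SoxC from -0.308 to 0.401. *Sox9* had r of 0.626 to 0.792 with the SoxB genes and -0.276 to -0.0494 with the SoxC genes, although its HMG box shared 58.2% to 64.6% of residues with the former and 59.5% to 63.3% with the latter.

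**Figure D3:**
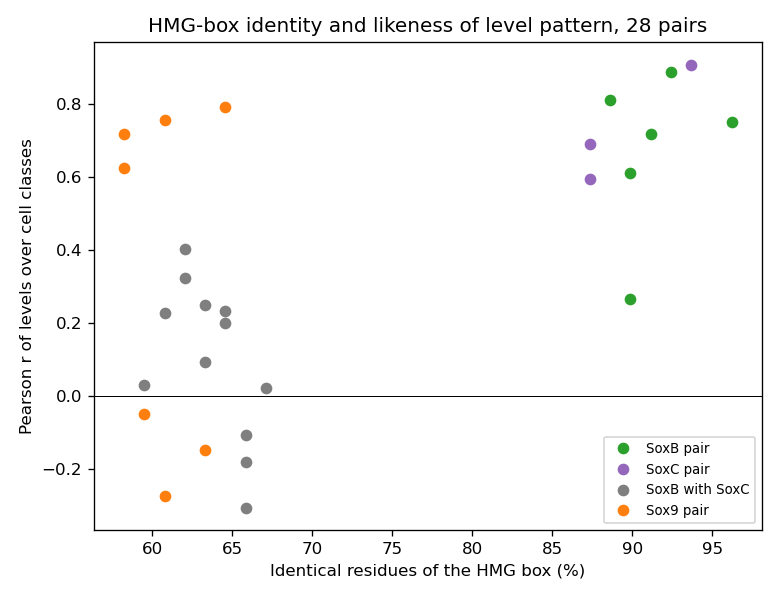
Identity of the HMG box (% of 79 residues) and Pearson r of levels over 16 cell classes for the 28 pairs of Sox genes, colored by type of pair. Pairs within SoxB or SoxC lie at 87.3% identity or more, and *Sox9* pairs, at 64.6% or less, reach an r of 0.792.

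Among 8555 genes of at least 50 CPM in 1 or more classes, the 5 most like each member were sought. *Sox2* was most like *Ywhae* (0.908), *Sox21*, *Stox2*, *Puf60* and *Pantr1*. *Sox1* was most like the overlapping *Sox1ot* (0.956), with *Igsf11*, *Pak1ip1* and *Pax6* also among its 5, and *Sox3* was most like *Asrgl1* (0.923), *Zfp24*, *Twf1*, *Wscd1* and *Crls1*. *Sox21* was most like *Jam2* (0.89), *Sox2*, *Nr2e1*, *Ddah1* and *Pcdh10*. *Sox4* was most like *Ccnt1* (0.973), *Cirbp*, *Zbtb12*, *Mex3a* and *Snapc3*, *Sox11* was most like *Bcl11a* (0.95), *Srrm4*, *Clasp1*, *Tsg101* and *Ube2e3*, and *Sox12* was most like *Pcbp4* (0.972), *Lrp3*, *Zfp580*, *Fam171a2* and *Tmem35a*. *Sox9* was most like *Mir670hg* (0.919), *Ntrk2*, *Rfx4*, *Traf3* and *Psph*.

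In the comparison of genotypes, over the 13 neural classes with at least 20 cells in every library, no Sox gene passed the threshold (edgeR quasi-likelihood test, smallest adjusted p = 0.999856 over 102 pairs of gene and class). Neither did any gene: 0% of 154645 tests passed, with 192 (0.124%) at an unadjusted p under 0.05 by edgeR and 108 by DESeq2, which called 1 gene. The main fit left out the replicate number, so its p-values and SEs include the difference between replicates. The lack of a call in that fit excludes neither small nor large changes. Fitted log2 changes of the Sox genes, mutant over control, ranged from -0.67 to 0.46 with a median of 0.12. With the replicate number as a block, 107 tests passed over all genes but none of a Sox gene, whose smallest adjusted p was 0.824; 8 of the 102 pairs then had an unadjusted p under 0.05, 6 of them for *Sox11* and 2 for *Sox9*, against 3.64% of all tests under the block.

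Of the 102 pairs, 17 had both mutant libraries above both control libraries, against 8.17% of all tests, and 4 had both below, against 7.24%. Without mutant replicate 2, higher pairs were not in excess: 31 of 104 pairs were higher and 36 lower, with 47838 and 48711 of 168744 over all tests. Separation from 1 library is a weaker rule, so these counts do not show what the 17 pairs rest on. *Sox9* accounted for 7 of the 17, in stem cells, intermediate progenitors, inhibitory neurons, dividing astrocyte progenitors, astrocytes, OPCs and ependymal cells, and *Sox21* for 5. In OPCs, *Sox9* was at 152 and 175 CPM in the control libraries and 197 and 256 CPM in the mutant libraries, a fitted change of 0.45 (SE 0.241, unadjusted p = 0.129 by edgeR, 0.0168 with the block). It was 0.38 within replicate 1 and 0.55 within replicate 2. In committed precursors, *Sox9* had the other direction (-0.62, SE 0.439), on 9 to 52 UMIs per library. These pairs share libraries across classes, so their number does not count independent differences.

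The pairs with the largest changes on the same side in both replicates also included *Sox11* in stem cells (0.36, SE 0.25; 137 and 151 CPM in the control libraries, 185 and 189 CPM in the mutant libraries) and *Sox9* in intermediate progenitors (0.33, SE 0.232). *Sox4* in committed precursors (0.39, SE 0.431) and inhibitory neurons (0.36, SE 0.435) and *Sox11* in excitatory neurons (0.34, SE 0.443) were higher in the mutant within each replicate. Within replicate 1 both *Sox4* differences were small, since its largest value over all classes there was 0.07 (log2). Without mutant replicate 2 the fitted changes of these pairs of *Sox4* and *Sox11* were -0.14, -0.22 and -0.15. That fit sets mutant replicate 1 against controls of both replicates, so these values include the difference between replicates. *Sox3* in inhibitory neurons (-0.67, SE 0.889) rested on 5 to 13 UMIs per library. It was 0.28 without control replicate 2, a fit that likewise includes the difference between replicates.

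*Sox4* showed the replicates apart most clearly. Within replicate 2 it was higher in the mutant than in the control library in 13 of 13 classes (median 0.56, range 0.24 to 0.97), and within replicate 1 in 4 of 13 (median -0.11, range -1.27 to 0.07). *Sox11* was higher in 12 of 13 classes within replicate 2 (median 0.49) and in 6 of 13 within replicate 1 (median -0.01). For *Sox2* these counts were 12 and 5 of 13, and for *Sox12* 12 and 4 of 12, whereas *Sox1* had 5 and 8 of 12. Over all members, 82 of 102 pairs were higher within replicate 2 and 51 within replicate 1. The share of all genes is not given. Classes of a replicate come from the same pair of libraries and are not independent. For *Sox9* the medians were 0.20 within replicate 1 and 0.28 within replicate 2, with 11 and 10 of 13 classes higher. Within a genotype, replicate 2 exceeded replicate 1 for *Sox4* by a median log2 of 0.38 in the controls and 1.04 in the mutants, and the median over single-exon genes was 0.30 and 0.34, whereas that over multi-exon genes was -0.00237 and 0.0376. How far software version, exon structure or the mice account for these differences was not tested.

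**Figure D4:**
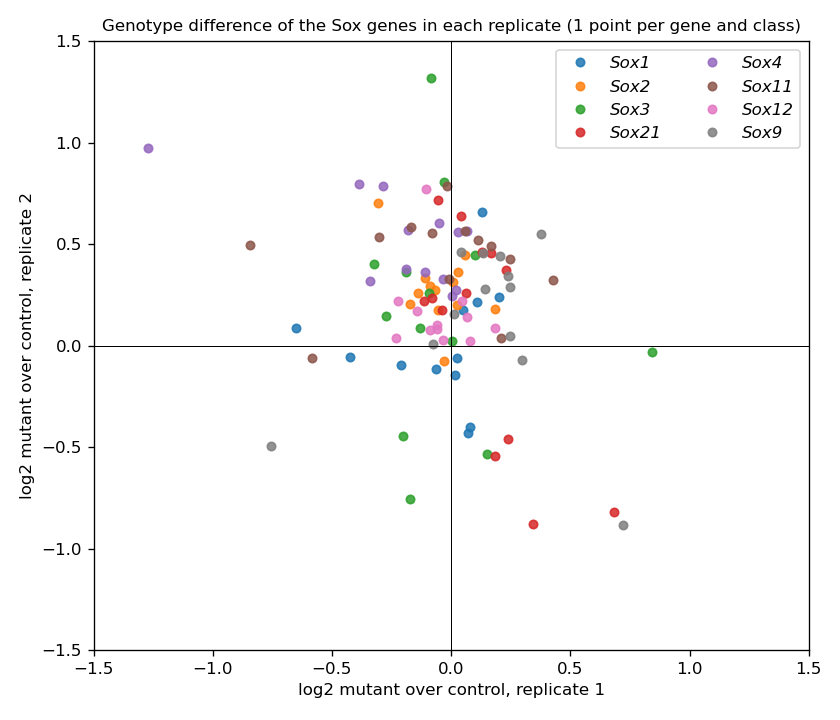
Log2 difference of each Sox gene, mutant over control, within replicate 1 (horizontal axis) and replicate 2 (vertical axis), with 1 point per gene and neural class (102 points). Points of *Sox4* lie above 0 on the vertical axis in 13 of 13 classes and on both sides of 0 on the horizontal axis, and no pair passed the test over all 4 libraries.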

How the data were processed

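Single-cell libraries of sorted tdTomato-positive cells were analysed (2 control and 2 mutant, each of 3 mice). Per the labels and the study's methods, the authors aligned reads to mm10 with Cell Ranger and deposited unnormalized UMI counts for every gene and barcode. Cell Ranger is given as 3.0 in the submitters' processing notes, 7.0.0 in the methods, and 7.0.0 or 5.0.1, by replicate, in the headers.

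A cell was retained if it had between 2000 and 40000 UMIs, 1000 genes or more and a mitochondrial share not above 10%: 5710, 2973, 5659 and 3281 in control replicates 1 and 2 and mutant replicates 1 and 2, with median depths of 11497 to 11837.5 UMIs. Clustering used scanpy 1.11.5 on 2000 variable genes scaled within each library, 30 principal components, 15 neighbours and Leiden clustering at a resolution of 1; no doublets were removed except in an alternative. Larger clusters left unnamed or ambiguous were clustered again. Splitting, the Leiden implementation and naming rules were set after clusters had been seen, without the Sox values. Class names are rebuilt and may differ from those of the study.

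Counts were summed per class and library. Genotypes were compared with edgeR 4.0.16 (R 4.3.3; filterByExpr, TMM, quasi-likelihood test, Benjamini-Hochberg adjustment over all genes of a class), in classes of at least 20 cells in every library. The code was also run on simulated counts with 4-fold changes and no difference between replicates. That run cannot show how the test behaves with the replicate difference of these data. A replicate number marks a software version and so pairs 2 libraries: deviations of same-numbered libraries from their group mean correlated at 0.652 to 0.894 over classes, so a replicate block was an alternative. Others were DESeq2 1.42.0, no TMM, no filter on low counts, each library left out and a mitochondrial limit of 5%. The 5% of cells with the highest Scrublet score removed, a resolution of 2 and the Sox genes added for clustering were further alternatives. SEs are the fitted change over the root of the F statistic. Gene models are from GENCODE vM21.

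The genes named are the 8 members, up to 8 pairs of gene and class with the largest genotype change on the same side in both replicates, the 5 genes most like each member, and lists linked to each group. Clusters and genes of these lists outside it were picked with their values in view. The members and lists were chosen with earlier results of these data known. Promoter and protein sequences were not used here. A marker gene and a gene among those most like *Sox1* are not reported here.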

Additional observations from a re-analysis of the deposited data

Results flagged for a closer look

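In 4 Sox genes, both mutant libraries lay on 1 side of both control libraries in some classes and on the other side in others. Of all tests, 8.17% had both mutant libraries above and 7.24% had both below. These are shares of single tests. The share of all genes with both directions across classes is not given, so the count of 4 genes has no base rate. No pair of a Sox gene and a class passed the genotype test (smallest adjusted p = 0.999856 by edgeR). The fitted log2 changes of *Sox9* were 0.23 in stem cells, 0.33 in intermediate progenitors, 0.26 in inhibitory neurons, 0.0686 in dividing astrocyte progenitors, 0.20 in astrocytes, 0.45 in OPCs and 0.27 in ependymal cells, but -0.62 in committed precursors. *Sox11* had 0.36 in stem cells and 0.29 in dividing inhibitory progenitors but -0.31 in committed precursors. *Sox1* had 0.14 in ependymal cells and -0.28 in OPCs, and *Sox2* had 0.22 in committed precursors and -0.0395 in excitatory precursors. The differences between classes were not tested.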

How the results depend on the processing

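Summed over classes, the number of tests of a gene in a class that passed was 0 with edgeR and 1 with DESeq2. It was 39 without a filter on low counts and 107 with the replicate block. None of these calls was a Sox gene, and the block changed no call of a Sox gene. The 17 pairs with both mutant libraries above both controls and the 4 below became 34 and 6 without control replicate 1 (all tests 43422 and 40297 of 149911), 67 and 16 without mutant replicate 1 (50739 and 43032 of 149501), 38 and 19 without control replicate 2 (43920 and 47626 of 168598), and 31 and 36 without mutant replicate 2 (47838 and 48711 of 168744), since separation from 1 library is a weaker rule. With a mitochondrial limit of 5%, 19 of 94 pairs lay above and 2 below (all tests 11838 and 10967 of 139705). With 1 library left out, *Sox4* ranged from -0.22 to 0.77 in inhibitory neurons and from -0.14 to 0.78 in committed precursors, and *Sox11* from -0.15 to 0.74 in excitatory neurons, each lowest without mutant replicate 2, while *Sox3* in inhibitory neurons ranged from -1.18 to 0.28, highest without control replicate 2. Fits with 1 library left out hold the replicates unequally in the genotypes, so these ranges include the difference between replicates. The other 88 values of named pairs kept their direction. Counts of Sox genes at a step moved in some settings. From excitatory precursors to neurons, 5 became 3 with the 5% mitochondrial limit or with Sox genes added for clustering. From dividing astrocyte progenitors to astrocytes, 0 became 1 without the highest doublet scores or with Sox genes added. From committed precursors to oligodendrocytes, 2 became 1 without the highest doublet scores and 4 in replicate 2 alone. From stem to ependymal cells, 5 became 3 with TMM scaling or in replicate 1 alone. Between OPC classes, 0 became 1 in replicate 2 alone. Shares of all genes at these steps are given for the main setting only. The cause was not tested. Without thinning, shares of cells were 78.1% for *Sox1* and 99.9% for *Sox11* and 50.5% for *Sox12* in dividing inhibitory progenitors, 97.9% for *Sox2*, 72.5% for *Sox21* and 98.5% for *Sox9* in stem cells, and 62.9% for *Sox3* in ependymal cells with division genes. With 2 libraries per genotype, and with the difference between replicates in the spread of the main fit, the test had little means to detect a difference. Of all tests, 0.124% had an unadjusted p under 0.05 by edgeR. That no Sox gene passed therefore excludes neither small nor large differences. Oligodendrocytes were too few in control replicate 2 for a test.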
